A study of Oryctolagus cuniculus with 12 samples.

Results

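The 10 genes described here are the glucocorticoid receptor gene NR3C1 and 9 genes that glucocorticoids are known to induce, namely FKBP5, TSC22D3, ZBTB16, KLF9, KLF15, SGK1, PDK4, CRISPLD2, and GLUL. They were chosen by name, as the rows of the gene table whose symbol is 1 of these. All 10 were present among the 20566 genes of the table, and all 10 passed the filter on low counts that left 14835 genes for testing.

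Glucocorticoids are steroid hormones that bind a receptor held ready in the cytoplasm by the chaperone HSP90 and its partner proteins. The receptor with its ligand enters the nucleus, binds DNA, and induces some genes while it restrains inflammatory genes driven by NF-kB and AP-1. Glucocorticoid drugs are used around glaucoma filtration surgery because inflammation and scarring of the conjunctiva can close the drainage bleb. Most cell types carry the receptor, and many of its induced genes also answer to other signals such as wounding, osmotic stress, or fasting.

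The tissue was conjunctiva of female Japanese white rabbits, analysed by RNA sequencing in 12 libraries. Trabeculectomy (TL) is a glaucoma operation that opens a drain for aqueous humor beneath a flap of sclera, and the fluid raises the conjunctiva as a bleb. The right eye was operated on with mitomycin C, an antiproliferative agent, and bleb conjunctiva was taken at 3 hours (TL3h), 3 days (TL3d), or 14 days (TL14d), with 3 libraries each. The control group was 3 libraries of conjunctiva from left eyes. The study's methods add general anesthesia with ketamine and xylazine, a conjunctival injection of betamethasone, a glucocorticoid, at the end of the operation, and an antibiotic ointment. No sham operation was labelled, so the operation, mitomycin C, betamethasone, and anesthesia cannot be told apart. The same methods give an age of 12 to 14 weeks. The study took these libraries from an earlier analysis, and whether the age and drugs in its methods held for these animals is not stated. The labels do not give the rabbit or time from which each control library came, or whether the left eyes received any drug.

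Total counts per library ranged from 27111276 to 38591374. Levels are given as CPM, the count of a gene scaled to the size of its library, with library sizes adjusted by the trimmed mean of M-values (TMM), and differences as log2 fold changes with the adjusted p of edgeR's quasi-likelihood test over all genes, called at 0.05. All 7 markers of conjunctival epithelium were present, with a summed level of 5079 to 21510 CPM. In bulk tissue, fewer cells of a type and less RNA per cell cannot be told apart. The study describes the operated groups as separate eyes, with the right eye of a rabbit operated on, so the spread between operated libraries includes that between animals. Nothing says whether the control libraries came from separate rabbits, and their spread may be technical.

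Control replicate 3 stood apart from the other controls on these genes, and each change of the 10 genes against the control group is given with and without it. Its level was above that of both other control libraries for 10 of 10 genes, beside 41.5% of the 13274 tested genes with at least 1 CPM in control replicate 3 or on average in the other controls. It was at least 2 times their mean for 8 of 10 genes, beside 12.5% of all genes. PDK4 was 71.4 times the mean of control replicates 1 and 2 and ranked 6 among all genes by this ratio, and FKBP5 was 56.4 times and ranked 10. ZBTB16 was 20.4 times, CRISPLD2 11.3 times, KLF9 10.1 times, and KLF15 6.86 times that mean, with SGK1 at 2.63, TSC22D3 at 2.05, GLUL at 1.51, and NR3C1 at 1.36 times. The same library held 76290 CPM of summed fibroblast markers against 12160 and 35470 CPM in control replicates 1 and 2, 602 CPM of macrophage markers against 68.1 and 145.0 CPM, and 5519 CPM of epithelium markers against 12480 and 9815 CPM. Neutrophil markers were at 63.9 CPM against 2.63 and 4.58 CPM, and endothelium markers at 275.3 CPM against 63.7 and 123.4 CPM. Goblet cell markers were at 599.8 CPM against 152.7 and 208.4 CPM, and T cell markers at 7.63 CPM against 12.7 and 22.4 CPM. Its adipocyte and skeletal muscle markers lay between those of the other controls. The part of these markers in the result was not tested.

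**Figure D1:**
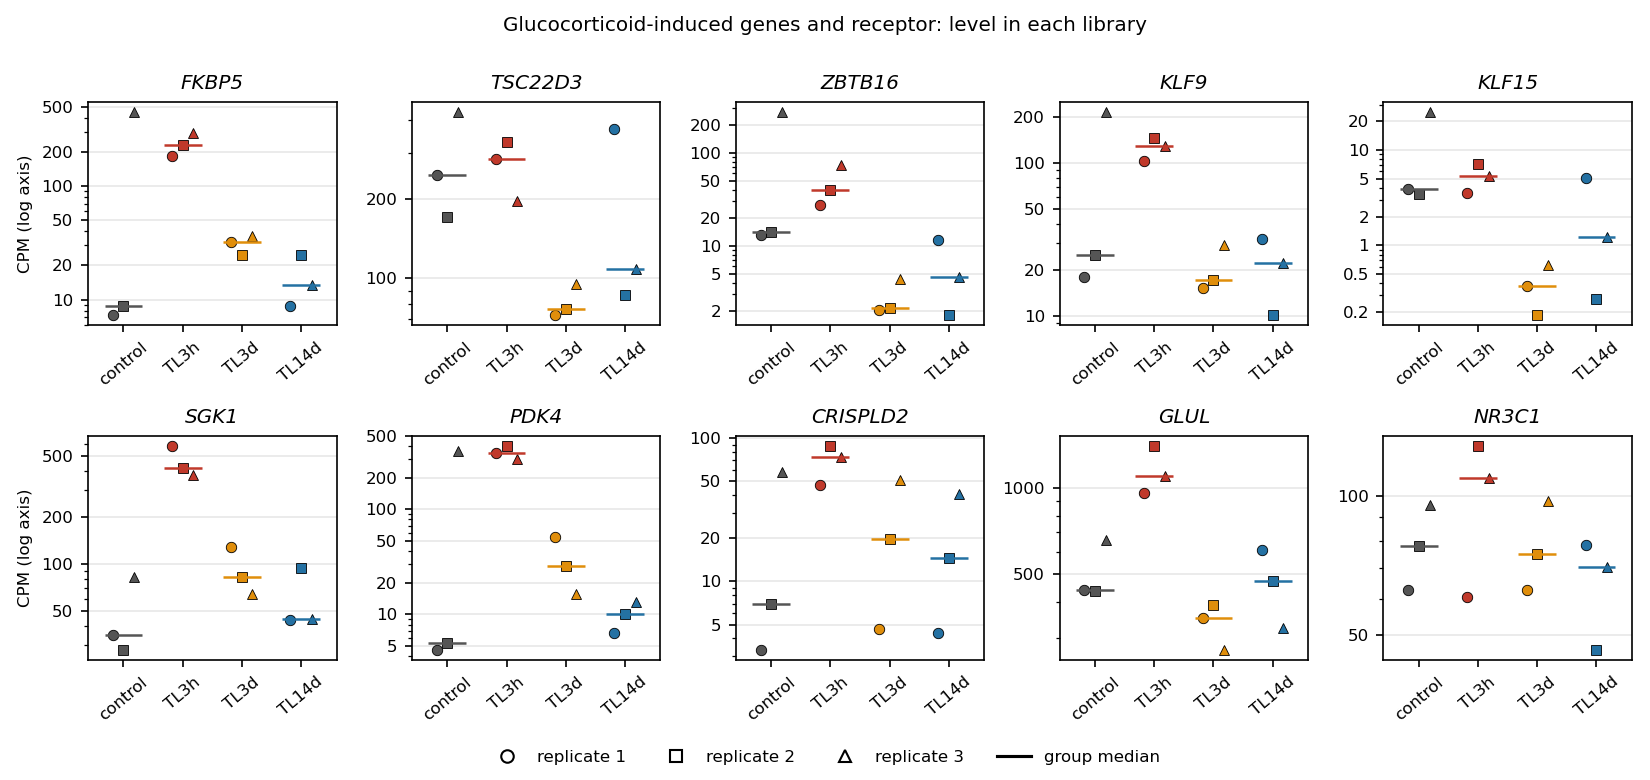
Each panel shows 1 gene, with the CPM level on a log axis in each of the 12 libraries and a line at the group median. Control replicate 3 (grey triangle) lies above both other controls in all 10 panels, for FKBP5 at 454.0 CPM against 7.26 and 8.83 CPM, and the TL3h libraries (red) of SGK1 and GLUL lie above all controls.

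At 3 hours, 2 of 10 genes were higher than in the control group, SGK1 and GLUL, and 0 were lower, beside 45.4% of all genes called in either direction, 23.2% higher and 22.2% lower. That share of 20.0% was under the background for either direction and near that for higher genes. The median log2 fold change of the 10 genes was 0.57, beside 0.02 over all genes. With library size alone as the scale, the median of all genes at 3 hours moved to -0.47 and the share of calls that were higher went from 51.0% to 25.0%, and 1 of 10 genes, SGK1, was called. Without control replicate 3, 6 of 10 genes were higher, namely FKBP5, KLF9, SGK1, PDK4, CRISPLD2, and GLUL, and 0 were lower, beside 22.2% of all genes called higher and 23.1% called lower. All TL3h libraries lay above both remaining controls for 7 of 10 genes, those 6 and ZBTB16, beside 37.3% of all genes, and the median was 2.12. Beside these 3-hour values, the summed levels of all 6 fibroblast markers were 105000 to 125600 CPM at 3 hours against 12160 to 76290 CPM in the controls, those of all 5 endothelium markers 605.6 to 1211 CPM against 63.7 to 275.3 CPM, those of all 5 neutrophil markers 927 to 2303 CPM against 2.63 to 63.9 CPM, and those of all 5 macrophage markers 636.5 to 973.2 CPM against 68.1 to 602 CPM, and their part in the 3-hour results was not tested. At 3 days, 3 of 10 genes, TSC22D3, ZBTB16, and KLF15, were lower than in the control group and 0 were higher, beside 17.6% of all genes called in either direction, 10.6% higher and 7.0% lower. Their number was 0 without TL3d replicate 1 or TL3d replicate 2, and 1, ZBTB16, without control replicate 1 or control replicate 2. Without control replicate 3, those 3 missed the threshold, while FKBP5, SGK1, and PDK4 were called higher, beside 8.61% of all genes called higher and 6.06% called lower. The median of the 10 genes at 3 days went from -1.83 to 0.03. At 3 days the summed macrophage markers were 1245 to 2003 CPM, the neutrophil markers 217 to 596 CPM, and the endothelium markers 294.3 to 548.5 CPM, each above all controls, while the fibroblast markers at 1328 to 64680 CPM overlapped the controls, and their part in the 3-day results was not tested. At 14 days, 0 of 10 genes were called with or without control replicate 3, beside 0.0% of all genes, and the median went from -1.30 to 0.03.

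**Figure D2:**
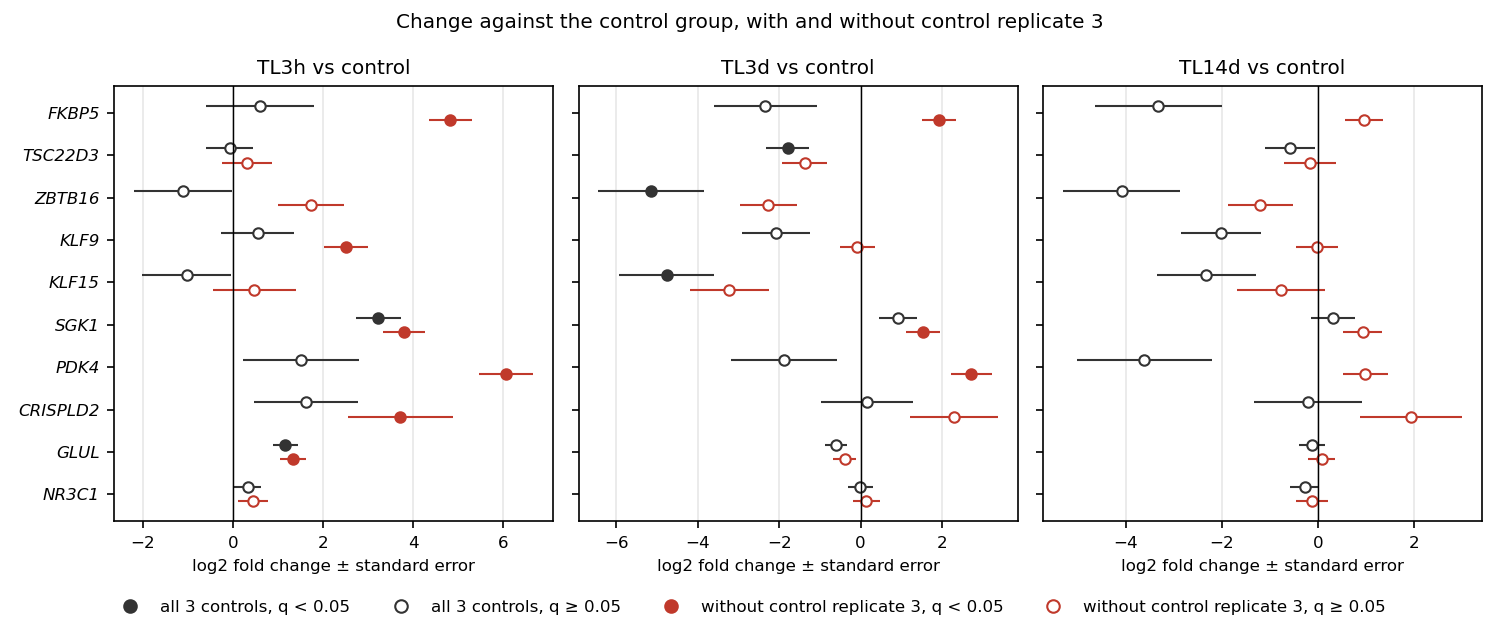
Log2 fold changes against the control group with their standard errors at each time point, from all 3 control libraries (dark) and without control replicate 3 (red), with filled points where the adjusted p was under 0.05. FKBP5 at 3 hours moves from 0.60 to 4.83 and PDK4 from 1.51 to 6.07 when that library is left out, while SGK1 stays between 3.23 and 3.80.

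NR3C1, the receptor itself, lies on chromosome 3 of OryCun2.0 at positions 25227107 to 25332367 on the minus strand. Its level was 62.6, 78.1, and 95.4 CPM in control replicates 1, 2, and 3, then 60.6, 128.0, and 109.1 CPM at 3 hours, 62.6, 74.8, and 97.3 CPM at 3 days, and 78.2, 46.6, and 70.1 CPM at 14 days. All groups overlapped. The log2 fold change was 0.33 ± 0.30 (SE, adjusted p = 0.40) at 3 hours, -0.0086 ± 0.30 (adjusted p = 0.987) at 3 days, and -0.28 ± 0.30 (adjusted p = 0.773) at 14 days. The sign of the NR3C1 difference at 3 hours turned with library size alone as the scale, to -0.16, and on FPKM, to -0.18. The NR3C1 values without control replicate 3 were 0.44 (adjusted p = 0.312), 0.14 (adjusted p = 0.798), and -0.12 (adjusted p = 0.919).

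FKBP5 encodes a co-chaperone of HSP90 that lowers the affinity of the receptor for its hormone and so forms a negative feedback loop. It lies on chromosome 12 at positions 25623146 to 25754300 on the minus strand. FKBP5 was at 7.26, 8.83, and 454.0 CPM in control replicates 1, 2, and 3. At 3 hours it was at 184.8, 231.0, and 295.7 CPM, at 3 days at 32.1, 24.6, and 36.1 CPM, and at 14 days at 8.84, 24.8, and 13.5 CPM. Control replicate 3 was higher than every operated library, and control replicates 1 and 2 lay under the operated libraries, with TL14d replicate 1 level with control replicate 2. Against all 3 controls the log2 fold change of FKBP5 at 3 hours was 0.60 ± 1.2 (SE, adjusted p = 0.719). Without control replicate 3 it was 4.83 ± 0.48 (adjusted p = 0.000134), a 28.4-fold higher level. At 3 days the direction turned, from -2.34 ± 1.26 (adjusted p = 0.205) with all controls to 1.93 ± 0.41 (adjusted p = 0.0245) without that library. At 14 days the direction of FKBP5 turned as well, from -3.32 (adjusted p = 0.433) to 0.96 (adjusted p = 0.441). Between time points, which use no control level, FKBP5 was lower at 14 days than at 3 hours by -3.92 ± 1.35 (adjusted p = 0.0374), in 3 of 3 libraries. That call held in 14 of 22 alternatives and was lost without any 1 of the TL3h or TL14d libraries and without TL3d replicate 1 or TL3d replicate 2, with the highest adjusted p at 0.104.

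TSC22D3 encodes GILZ, a leucine zipper protein that restrains NF-kB and AP-1. The gene lies on chromosome X at positions 56332392 to 56400439 on the minus strand. TSC22D3 was at 247.0, 170.7, and 428.2 CPM in control replicates 1, 2, and 3 and at 282.5, 327.8, and 196.2 CPM at 3 hours. It was at 72.5, 76.7, and 95.3 CPM at 3 days and at 368.4, 86.6, and 108.9 CPM at 14 days. The TL3d libraries lay below all controls and all TL3h libraries, and TL14d replicate 1 stood above the other 2 of its group. The log2 fold change of TSC22D3 was -0.07 ± 0.52 (SE, adjusted p = 0.925) at 3 hours and -1.79 ± 0.53 (adjusted p = 0.0449) at 3 days, a 3.46-fold lower level. At 3 hours TSC22D3 was at 0.31 (adjusted p = 0.677) without control replicate 3. At 14 days it was -0.58 (adjusted p = 0.720), and -0.17 (adjusted p = 0.935) without that library. Without TL14d replicate 1 the 14-day value was -1.53 (adjusted p = 0.0559). The call at 3 days was lost without control replicate 3 (-1.38, adjusted p = 0.110) and held in 11 of 22 alternatives, whose adjusted p ranged from 0.00499 to 0.135. At 3 days TSC22D3 was lower than at 3 hours by -1.72 ± 0.53 (adjusted p = 0.0284), a call that held in 15 of 22 alternatives.

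ZBTB16, KLF9, and KLF15 encode zinc finger transcription factors that carry the hormone response to a further tier of genes. ZBTB16 (PLZF) lies on chromosome 1 at positions 102184750 to 102371503, KLF9 on chromosome 1 at 56664741 to 56691273, and KLF15 on chromosome 9 at 5670890 to 5752228, all on the minus strand. ZBTB16 was at 13.0, 14.0, and 275.0 CPM in control replicates 1, 2, and 3, and at 27.1, 39.8, and 73.7 CPM at 3 hours. It was at 2.05, 2.13, and 4.35 CPM at 3 days and at 11.4, 1.79, and 4.62 CPM at 14 days. Both later groups lay below all control and all TL3h libraries. The call for ZBTB16 at 3 days held in 18 of 22 alternatives and was lost without TL3d replicate 1, TL3d replicate 2, or control replicate 3 and with only the 2 groups compared in the fit (adjusted p = 0.0562). Its log2 fold change at 3 days was -5.14 ± 1.29 (SE, adjusted p = 0.0268) and became -2.26 ± 0.69 (adjusted p = 0.0563) without control replicate 3. At 3 hours it was -1.10 ± 1.09 (adjusted p = 0.444) and turned to 1.74 ± 0.73 (adjusted p = 0.0791). At 14 days it was -4.08 ± 1.22 (adjusted p = 0.357), and DESeq2 gave -4.09 (adjusted p = 0.00536) for ZBTB16, with an adjusted p from 0.00536 to 0.978 over the alternatives. The 14-day value of ZBTB16 without control replicate 3 was -1.20 (adjusted p = 0.537).

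KLF9 was at 18.0, 25.0, and 216.4 CPM in control replicates 1, 2, and 3, at 103.6, 146.7, and 130.1 CPM at 3 hours, at 15.2, 17.3, and 29.1 CPM at 3 days, and at 31.7, 10.1, and 22.3 CPM at 14 days. The TL3h libraries of KLF9 lay above all later libraries and between control replicate 3 and the other controls. Its log2 fold change at 3 hours was 0.55 ± 0.81 (SE, adjusted p = 0.613) with all controls and 2.51 ± 0.48 (adjusted p = 0.00301) without control replicate 3. At 3 days the KLF9 value went from -2.07 (adjusted p = 0.106) to -0.08 (adjusted p = 0.916), and at 14 days from -2.02 (adjusted p = 0.456) to -0.02 (adjusted p = 0.993).

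KLF15 is a regulator of amino acid and glucose metabolism. It was at 3.92, 3.45, and 25.3 CPM in control replicates 1, 2, and 3, at 3.54, 7.14, and 5.34 CPM at 3 hours, at 0.375, 0.185, and 0.626 CPM at 3 days, and at 5.04, 0.272, and 1.24 CPM at 14 days. Every TL3d library of KLF15 was below every control and every TL3h library. The TL3d levels rest on 15, 6, and 22 counts, above the floor of 3 counts that a count of 0 allows. Its log2 fold change at 3 days was -4.76 ± 1.16 (SE, adjusted p = 0.0246), and -3.22 ± 0.96 (adjusted p = 0.0529) without control replicate 3. The call held in 17 of 22 alternatives, and TL3d replicates 1 and 2 and each of the 3 controls ended it when left out. At 3 hours the KLF15 value was -1.03 ± 0.99 (adjusted p = 0.432), and 0.48 ± 0.93 (adjusted p = 0.70) without that library. At 14 days KLF15 was at -2.32 (adjusted p = 0.480), and at -0.77 (adjusted p = 0.782) without it. Without TL14d replicate 1 the 14-day value of KLF15 was -3.86 (adjusted p = 0.0858).

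SGK1 encodes a kinase that raises the surface number of ion channels and transporters, and it is induced by serum, growth factors, and cell shrinkage as well as by glucocorticoids. It lies on chromosome 12 at positions 124622071 to 124739092 on the minus strand. SGK1 was at 35, 28.1, and 83.0 CPM in control replicates 1, 2, and 3 and at 578.5, 417.4, and 376.3 CPM at 3 hours. It was at 128.5, 83.2, and 64.2 CPM at 3 days and at 43.9, 94.1, and 44.1 CPM at 14 days. All TL3h libraries lay above all other libraries. SGK1 rose 9.39-fold at 3 hours, with a log2 fold change of 3.23 ± 0.50 (SE, adjusted p = 0.000612) and 22 of 22 alternatives past the threshold. At 3 days the value for SGK1 was 0.92 ± 0.46 (adjusted p = 0.176), and 1.53 ± 0.42 (adjusted p = 0.0430) without control replicate 3. At 14 days it was 0.32 ± 0.46 (adjusted p = 0.837), with overlapping groups, and 0.93 (adjusted p = 0.453) without control replicate 3. The 3-hour value of SGK1 without that library was 3.80 (adjusted p = 0.000358).

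PDK4 and GLUL act in metabolism. PDK4, on chromosome 10 at positions 33584163 to 33597124 on the plus strand, encodes a kinase that switches off pyruvate dehydrogenase and spares glucose. PDK4 was at 4.63, 5.35, and 356.1 CPM in control replicates 1, 2, and 3, at 340.0, 400.4, and 301.2 CPM at 3 hours, at 54.7, 29.2, and 15.5 CPM at 3 days, and at 6.69, 10.2, and 13.1 CPM at 14 days. Control replicate 3 lay among the TL3h libraries, and the other controls lay below every operated library. The log2 fold change of PDK4 at 3 hours was 1.51 ± 1.29 (SE, adjusted p = 0.375) with all controls and 6.07 ± 0.60 (adjusted p = 0.000136) without control replicate 3, a 67.0-fold higher level. At 3 days it turned from -1.88 ± 1.31 (adjusted p = 0.322) to 2.71 ± 0.51 (adjusted p = 0.0204). At 14 days PDK4 turned from -3.61 (adjusted p = 0.431) to 0.99 (adjusted p = 0.479). Between time points, PDK4 at 14 days was lower than at 3 hours by -5.12 ± 1.51 (adjusted p = 0.0191) and its TL14d libraries lay below all TL3d libraries (-1.73, adjusted p = 0.465). The call for PDK4 against 3 hours held in 19 of 22 alternatives and was lost without any 1 of the TL14d libraries (adjusted p up to 0.0614).

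GLUL encodes glutamine synthetase, which joins ammonia to glutamate, and it lies on a sequence not placed on a chromosome in OryCun2.0. GLUL was the most abundant of the 10 genes in every group by FPKM, a level per transcript length. It was at 441.7, 436.6, and 661.1 CPM in control replicates 1, 2, and 3 and at 962.1, 1398, and 1095 CPM at 3 hours. It was at 354.0, 390.4, and 274.0 CPM at 3 days and at 608.3, 474.4, and 324.8 CPM at 14 days. All TL3h libraries lay above all other libraries, and all TL3d libraries lay below all controls. GLUL rose 2.25-fold at 3 hours, with a log2 fold change of 1.17 ± 0.27 (SE, adjusted p = 0.00604). The call held in 21 of 22 alternatives and was lost with library size alone as the scale (0.68, adjusted p = 0.0557). At 3 days the value for GLUL was -0.60 ± 0.27 (adjusted p = 0.140), and at 14 days it was -0.13 ± 0.27 (adjusted p = 0.888). The GLUL values without control replicate 3 were 1.34 (adjusted p = 0.00562), -0.39 (adjusted p = 0.346), and 0.08 (adjusted p = 0.935) at the 3 time points.

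CRISPLD2 encodes a secreted protein made by fibroblasts and other mesenchymal cells, and it too lies on an unplaced sequence. CRISPLD2 was at 3.35, 6.90, and 57.8 CPM in control replicates 1, 2, and 3, at 47.3, 88.3, and 74.3 CPM at 3 hours, at 4.65, 19.9, and 51.2 CPM at 3 days, and at 4.34, 14.6, and 40.5 CPM at 14 days. The TL3d libraries of CRISPLD2 spanned an 11-fold range and the TL14d libraries a 9.34-fold range. The summed fibroblast markers were 12160, 35470, and 76290 CPM in control replicates 1, 2, and 3, 105000, 125600, and 107400 CPM at 3 hours, 1328, 11710, and 64680 CPM at 3 days, and 26630, 11010, and 57030 CPM at 14 days, and their part in the CRISPLD2 values was not tested. The log2 fold change of CRISPLD2 at 3 hours was 1.62 ± 1.15 (SE, adjusted p = 0.279) with all controls and 3.72 ± 1.16 (adjusted p = 0.0274) without control replicate 3. At 3 days it was 0.15 ± 1.12 (adjusted p = 0.936), and at 14 days -0.20 ± 1.12 (adjusted p = 0.964). These values of CRISPLD2 became 2.29 (adjusted p = 0.167) and 1.94 (adjusted p = 0.524) without control replicate 3.

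The operated groups were then compared with each other, which sets no control level against them, although the test shares its estimate of spread with the controls. From 3 hours to 3 days, 6 of 10 genes were lower and 0 were higher, beside 37.3% of all genes called in either direction, 18.4% higher and 19.0% lower. The 6 were TSC22D3, ZBTB16 (-4.04 ± 1.23 SE, adjusted p = 0.0263), KLF9 (-2.63 ± 0.86, adjusted p = 0.0353), KLF15 (-3.74 ± 1.12, adjusted p = 0.0247), SGK1 (-2.32 ± 0.48, adjusted p = 0.00400), and GLUL (-1.76 ± 0.28, adjusted p = 0.000917). With library size alone as the scale, the median of all genes moved from -0.05 to 0.43, the share of calls that were higher from 49.2% to 80.5%, and 4 of the 10 genes were called. For 8 of 10 genes every TL3d library lay below every TL3h library, beside 28.5% of all genes. The other two without overlap were FKBP5 (-2.94, adjusted p = 0.0981) and PDK4 (-3.39, adjusted p = 0.0791). Without control replicate 3, whose spread enters the fit, both were called (FKBP5 adjusted p = 0.000405 and PDK4 adjusted p = 0.000508), which gave 8 of 10 genes lower beside 18.1% of all genes. Without TL3d replicate 1 or TL3d replicate 2, 2 of 10 genes were called, SGK1 and GLUL, and without TL3d replicate 3, TL3h replicate 2, or TL3h replicate 3, 3 were called. CRISPLD2 (-1.47, adjusted p = 0.336) and NR3C1 (-0.34, adjusted p = 0.395) overlapped between the 2 groups. The summed fibroblast markers were 105000 to 125600 CPM at 3 hours and 1328 to 64680 CPM at 3 days, and the endothelium markers 605.6 to 1211 CPM and 294.3 to 548.5 CPM, both without overlap, while macrophage markers were higher at 3 days, at 1245 to 2003 CPM against 636.5 to 973.2 CPM. The part of these markers in the differences was not tested.

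At 14 days against 3 hours, 5 of 10 genes were lower and 0 were higher, beside 45.3% of all genes called in either direction, 22.9% higher and 22.3% lower. The 5 were FKBP5, PDK4, KLF9 (-2.57 ± 0.86 SE, adjusted p = 0.0325), SGK1 (-2.91 ± 0.49, adjusted p = 0.00103), and GLUL (-1.30 ± 0.27, adjusted p = 0.00363). For 7 of 10 genes every TL14d library lay below every TL3h library, beside 27.6% of all genes. With library size alone as the scale, the share of calls that were higher went from 50.7% to 77.6%. ZBTB16 (-2.98, adjusted p = 0.0599) was called without control replicate 3 (adjusted p = 0.00627), which gave 6 genes, beside 21.5% of all genes. Without TL14d replicate 2 or TL14d replicate 3, 2 genes were called, SGK1 and GLUL, and without TL3h replicate 2 or TL3h replicate 3, 3 were called. Summed fibroblast markers at 14 days were 11010 to 57030 CPM, endothelium markers 88.8 to 281.8 CPM, and macrophage markers 89.3 to 408.5 CPM, all below the TL3h libraries, and their part in the result was not tested. Between 3 days and 14 days, 0 of 10 genes were called, beside 2.24% of all genes, and 2 of 10 had an unadjusted p under 0.05, beside 3350 of 14835 genes. DESeq2 also called 0 of them. PDK4 was the 1 gene of the 10 whose TL14d libraries all lay below the TL3d libraries, beside 14.0% of all genes. Over the 3 time points together, an F test in the same fit called 6 of 10 genes, beside 52.4% of all genes, a share near the background. The number was 3 without TL3d replicate 1 or TL3d replicate 2.

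The 14-day libraries differed among themselves. TL14d replicate 1 lay within the range of the controls for 9 of 10 genes, with ZBTB16 below it, while replicate 2 lay below that range for 5 genes and above it for 1, and replicate 3 lay below it for 4. Summed neutrophil markers were 2.59, 2075, and 141.4 CPM in TL14d replicates 1, 2, and 3, and 2.63, 4.58, and 63.9 CPM in the controls, and their part in the spread was not tested. At 14 days against control, edgeR called 0 of 10 genes, with 5 of 10 and 1538 of 14835 genes at an unadjusted p under 0.05, while DESeq2 called 1 of the 10, ZBTB16, and 367 genes in all. Without TL14d replicate 1, edgeR called 716 genes and still 0 of the 10.

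Per transcript length, the genes were ordered by their median level in each group. By median FPKM in the control group, GLUL was highest at 218.1, followed by TSC22D3 at 84.4, and the other 8 genes lay between 12.7 and 1.51 with overlapping neighbours. These medians do not describe control replicate 3, where FKBP5 was at 113.1 FPKM and PDK4 at 94.0 FPKM, above SGK1 at 28.3 FPKM. At 3 hours GLUL stayed first at 391.8 FPKM, SGK1 came second at 104.7, TSC22D3 at 68.3 and PDK4 at 67.5 overlapped, and FKBP5 followed at 42.3. NR3C1 ranked 8 at 3 hours, with 10.5 FPKM, above ZBTB16 at 3.53 and KLF15 at 3.08, and its range overlapped that of ZBTB16. At 3 days KLF15 and ZBTB16 were lowest, at 0.299 and 0.275 FPKM, and their ranges overlapped each other but not that of KLF9 above them.

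The table of transcripts listed 20 transcripts of the 10 genes, of which 17 passed the filter. At 3 hours 3 were higher and 1 was lower, beside 28.3% of 26082 transcripts called in either direction. The 3 higher ones were both SGK1 transcripts and that of GLUL. At 3 days 2 were lower, 1 of ZBTB16 (adjusted p = 0.0467) and that of KLF15 (adjusted p = 0.04805), beside 5.13%. Both missed the threshold without control replicate 3 (adjusted p = 0.0817 and 0.0962). Their highest adjusted p over the alternatives was 0.160 and 0.165. The lower one at 3 hours was the transcript of TSC22D3 with the longest span, 68048 bases of the genome, which starts far upstream of the transcript with the shortest span of 3818 bases, and both share their last position on the strand. Long forms of TSC22D3 and the short form, GILZ, are made from different promoters. The long-span transcript was at 65.3, 47.8, and 68.2 CPM in control replicates 1, 2, and 3 and at 15.5, 11.9, and 16.5 CPM at 3 hours. The short-span transcript was at 185.1, 122.2, and 349.6 CPM in the controls and at 252.0, 296.9, and 166.8 CPM at 3 hours. All TL3h values of the long-span transcript lay below all its controls, whereas the short-span values overlapped. The log2 fold change at 3 hours was -2.05 ± 0.59 (SE, adjusted p = 0.0253) for the long-span transcript and 0.12 ± 0.53 (adjusted p = 0.897) for the short-span transcript of TSC22D3. The call for the long-span transcript was nearer the threshold without control replicate 3 (-2.00, adjusted p = 0.0497) and ranged in adjusted p from 0.000397 to 0.0864 over the alternatives. A further long transcript of TSC22D3, which spans 49079 bases, was at 0.833, 3.64, and 12.4 CPM in the controls and at 0.869, 3.73, and 1.89 CPM at 3 hours. Its groups overlapped, with a log2 fold change of -1.38 ± 0.91 (adjusted p = 0.303), and -0.08 (adjusted p = 0.964) without control replicate 3, so the lower level was seen in 1 of the 2 long forms tested.

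To compare both forms directly, the share of the long-span transcript in the sum of both was taken in each library. It was 26.1%, 28.1%, and 16.3% in control replicates 1, 2, and 3 and 5.78%, 3.84%, and 9.01% at 3 hours. It was 15.8%, 17.1%, and 20.6% at 3 days, and 22.2%, 18.0%, and 15.1% at 14 days. The share at 3 hours was below that of every other library in 3 of 3 libraries. These shares are a description with no test, since the long-span transcript was taken up for its call at 3 hours. The reads assigned to each form were estimated by the authors' software, since the transcripts end at the same position.

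**Figure D3:**
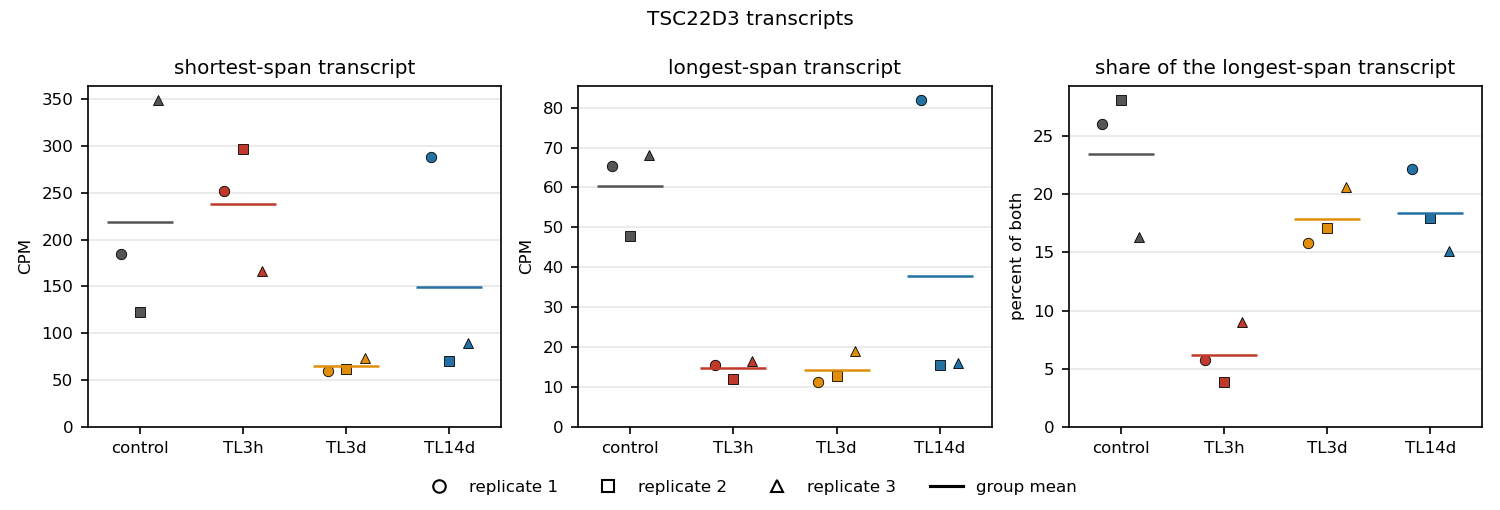
CPM of the shortest-span and the longest-span transcript of TSC22D3 and the share of the longest-span transcript in their sum, in percent, for each library, with a line at the group mean. The TL3h libraries have a share of 3.84% to 9.01%, below the 16.3% to 28.1% of the controls, while the shortest-span transcript overlaps between both groups.

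Other genes of the pathway were followed in 3 lists, all chosen with earlier results of these data known. Of 25 further genes known to be induced by glucocorticoids, 23 were in the table and all 23 were tested. At 3 hours 9 were higher and 2 were lower, with a median log2 fold change of 1.18 beside 0.02 over all genes and 23.2% of all genes called higher. ERRFI1, a feedback inhibitor of the EGF receptor, rose from 34.0 ± 9.13 to 670.1 ± 74.1 CPM (SD, n = 3, adjusted p = 1.69e-05). DUSP1, a phosphatase that switches off MAP kinases, rose from 155.6 ± 17.0 to 1188 ± 98.3 CPM (adjusted p = 3.89e-05), and THBD, thrombomodulin, from 13.9 ± 4.32 to 147.5 ± 91.0 CPM (adjusted p = 0.000217). MERTK, a receptor for the clearance of dead cells, fell from 68.2 ± 10.4 to 35.6 ± 2.6 CPM (adjusted p = 0.000875), and TFCP2L1 was the other lower gene. Without control replicate 3, 14 of the 23 were higher and 2 lower at 3 hours, beside 22.2% and 23.1% of all genes, with a median of 2.09. That library was above both other controls for 18 of the 23, beside 41.5% of all genes. The ratio to their mean had a median of 2.43 over the 23, beside 0.991 over all genes, and ran from 0.689 to 17.7, with FAM107A at 17.7 times, ANGPTL4 at 17.0 times, CD163 at 11.8 times, and DDIT4 at 8.52 times their mean. CD163 is also 1 of the macrophage markers. At 3 hours the summed endothelium markers were 605.6 to 1211 CPM against 63.7 to 275.3 CPM in the controls and the neutrophil markers 927 to 2303 CPM against 2.63 to 63.9 CPM, and their part in the values of this list was not tested.

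At 3 days 0 of these 23 genes were higher and 2 were lower than in the control group, beside 10.6% of all genes called higher and 7.0% called lower. The counts were 3 higher and 1 lower without control replicate 3, beside 8.61% and 6.06%. The number called was 0 without control replicate 2, TL3d replicate 1, or TL3d replicate 2, 1 without control replicate 1 or any 1 of the TL3h libraries, 4 without TL3d replicate 3, 6 without TL14d replicate 1, and 8 by DESeq2. At 14 days 0 were called in either direction, with 4 at an unadjusted p under 0.05 and 0 by DESeq2. MYOC, which encodes myocilin, a secreted glycoprotein that glucocorticoids induce in the eye's drainage tissue, averaged 4.68 ± 4.11 CPM (SD, n = 3) over the controls and had 3 counts or fewer in each TL3d library, at least 55.6-fold lower against a floor of 3 counts per library (adjusted p = 0.0178). The bound for MYOC without control replicate 3 was 28.0-fold (adjusted p = 0.0312), and its highest adjusted p over the alternatives was 0.0697. HIF3A went from 4.68 ± 6.18 to 0.141 ± 0.223 CPM (adjusted p = 0.0467), a call that was lost without control replicate 3 (adjusted p = 0.146). From 3 hours to 3 days, 12 of the 23 were lower and 1 was higher, beside 19.0% and 18.4% of all genes, with a median log2 fold change of -2.30 beside -0.05 over all genes. Summed endothelium markers were 605.6 to 1211 CPM at 3 hours and 294.3 to 548.5 CPM at 3 days, and neutrophil markers 927 to 2303 CPM and 217 to 596 CPM, and their part in this result was not tested.

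The second list held 18 enzymes that make or remove the active ligand, the related mineralocorticoid receptor, chaperones of the receptor, and its cofactors, of which 17 were tested. At 3 hours 5 were higher and 9 were lower, beside 23.2% and 22.2% of all genes. The 5 were chaperone genes, HSPA8 (2.04 on the log2 scale, adjusted p = 0.000218), HSP90AA1 (1.30, adjusted p = 0.000315), HSP90AB1 (1.22, adjusted p = 0.000273), PTGES3 (0.79, adjusted p = 0.00132), and STIP1 (0.73, adjusted p = 0.00308). They were described by this shared role after their values were seen. With library size alone as the scale, STIP1 (0.23, adjusted p = 0.249) and PTGES3 (0.29, adjusted p = 0.132) were no longer called. Among the 9 lower genes, NR3C2, the mineralocorticoid receptor, differed by -2.26 (adjusted p = 0.000929) and the coactivator NCOA2 by -1.85 (adjusted p = 0.000211). H6PD, which feeds the ligand-making enzyme HSD11B1, differed by -1.51 (adjusted p = 7.68e-05). FKBP4, a co-chaperone that competes with FKBP5 on HSP90, was among the lower genes (-0.59, adjusted p = 0.0394).

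At 3 days, 1 gene of that list was higher and 2 were lower, beside 10.6% and 7.0% of all genes. The number called was 0 without control replicate 2, TL3d replicate 1, or TL3d replicate 2, 1 without control replicate 1, 5 without TL3d replicate 3 or TL14d replicate 1, and 7 by DESeq2. HSD11B1, which converts the inactive hormone to its active form, rose from 0.722 ± 0.127 to 4.96 ± 3.08 CPM (SD, n = 3, adjusted p = 0.0155). NR3C2 fell from 65.6 ± 7.71 to 17.5 ± 1.30 CPM (adjusted p = 0.0142) and the coactivator NCOA1 from 161.2 ± 18.9 to 100.4 ± 2.31 CPM (adjusted p = 0.0231). The highest adjusted p over the alternatives was 0.0608 for HSD11B1, 0.0580 for NR3C2, and 0.0804 for NCOA1. Summed macrophage markers were 1245 to 2003 CPM at 3 days against 68.1 to 602 CPM in the controls, and their part in these values was not tested. At 14 days 0 of 17 were called by edgeR, with 3 at an unadjusted p under 0.05, and 1 by DESeq2.

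The third list held 12 inflammatory genes that glucocorticoids are known to repress. The study had already listed IL6, CXCL8, CCL2, IL1A, IL1B, IL23A, and MMP13 among strongly raised genes, with their fold changes after trabeculectomy. The list was chosen with such results known, so its counts beside all genes are a description and not independent of them. At 3 hours 8 were higher and 0 lower, beside 23.2% of all genes called higher. PTGS2, the inducible prostaglandin synthase, rose from 2.91 ± 2.41 to 364.8 ± 56.8 CPM (SD, n = 3, adjusted p = 0.000281). The chemokine CCL2 rose from 0.940 ± 1.08 to 431.5 ± 79.6 CPM (adjusted p = 0.000841), IL6 from 0.117 ± 0.143 to 382.6 ± 119.8 CPM (adjusted p = 0.000981), and the adhesion molecule ICAM1 from 67.3 ± 11.7 to 293.1 ± 81.5 CPM (adjusted p = 0.00194). At 3 days 5 of 12 were higher and 0 lower, beside 10.6% of all genes called higher, and 3 without control replicate 3, beside 8.61%. The number was 0 without control replicate 1, control replicate 2, or TL3d replicate 2, 1 without TL3d replicate 1, 8 without TL14d replicate 2, and 9 by DESeq2. Among them were CCL2 at 70.8 ± 23.9 CPM (adjusted p = 0.0166), PTGS2 at 35 ± 3.21 CPM (adjusted p = 0.0187), and IL1A at 80.8 ± 77.3 CPM (adjusted p = 0.0291, and 0.0686 without control replicate 3). MMP13, a collagenase, was at 208.9 ± 171.4 CPM at 3 days and at 3 counts or fewer in each control, at least 2829-fold higher against a floor of 3 counts per library (adjusted p = 0.0169). Each of these 4 missed the threshold under at least 1 alternative, with the highest adjusted p at 0.0635 for CCL2, 0.0719 for PTGS2, 0.0986 for IL1A, and 0.0741 for MMP13. At 14 days 0 of 12 were called by edgeR, with 10 at an unadjusted p under 0.05, while DESeq2 called 8, and edgeR called 8 without TL14d replicate 1. Summed neutrophil markers were 927 to 2303 CPM at 3 hours and 217 to 596 CPM at 3 days against 2.63 to 63.9 CPM in the controls, and macrophage markers 636.5 to 973.2 CPM and 1245 to 2003 CPM against 68.1 to 602 CPM. The part of both in these values was not tested.

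**Figure D4:**
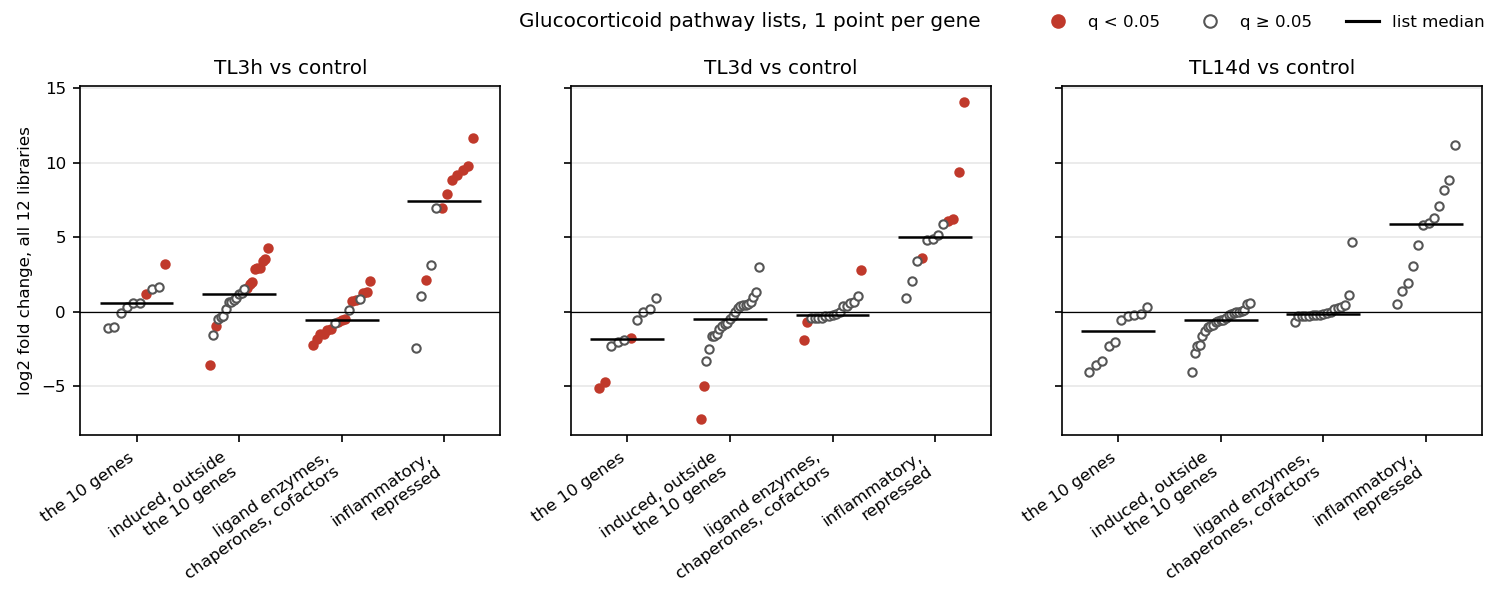
Log2 fold changes against the control group at each time point, with all 12 libraries in the fit, for the 10 genes and the 3 pathway lists, 1 point per gene, filled where the adjusted p was under 0.05, and a line at the list median. At 3 hours 2 of 10, 11 of 23, 14 of 17, and 8 of 12 genes are filled, and at 14 days 0 are. Fitted values of genes with few or no control counts, such as IL6 and MMP13, depend on the prior count of 0.125.

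The genes whose pattern over the 12 libraries was most like that of FKBP5 were ranked by the root mean square difference in log2(CPM + 0.5) after the control mean was subtracted from each gene, over 14834 genes with a median of 2.14. PDK4 was nearest at 0.80, then TMEM26 at 0.93, STC2, which encodes a secreted glycoprotein hormone, at 0.95, CD1D at 0.98, and CCDC71L at 0.98. All 5 had their lowest control levels in replicate 1 and their highest in replicate 3, as FKBP5 did. The ranking includes the control libraries, so this shared order follows from the selection and is not a separate result. STC2 was at 0.309, 0.851, and 33.3 CPM in control replicates 1, 2, and 3 and at 9.11 CPM on average at 3 hours. Among the 10 genes, KLF9 ranked 50 and CRISPLD2 64 by likeness to FKBP5, while ZBTB16 ranked 12162 and KLF15 12501.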

How the data were processed

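RNA from 12 conjunctiva libraries was sequenced after stranded mRNA library preparation, and the authors aligned the reads to OryCun2.0 with STAR 2.6.0c, per the submitters' processing notes in the labels. The deposited tables hold estimated counts per gene and per transcript (23.4% of the gene values were not whole) and FPKM, both calculated by the authors with GeneData Profiler. Counts were rounded to whole numbers. Genes were kept by filterByExpr (minimum count 10, minimum total count 15), scaled by TMM, and tested with edgeR 4.0.16 (R 4.3.3) by the quasi-likelihood method, with all 12 libraries in 1 fit, Benjamini-Hochberg adjustment over all genes tested, and a threshold of 0.05. Fold changes used a prior count of 0.125. Standard errors were taken from the fold change and the test statistic. Transcripts were tested in the same way over 26082 transcripts. Adjusted p-values are from edgeR unless DESeq2 1.42.0 or limma 3.58.1 is named. A count of 0 allows up to 3 counts (0.0712 to 0.124 CPM). This floor covers counting error alone, as the labels name no molecular identifiers.

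The 10 genes and all gene lists were chosen with earlier results of these data known. All 10 genes were named with every library's value. Of each pathway list and time point, up to 4 called genes with the smallest adjusted p were named, and the 5 genes most like FKBP5. A gene that this rule names is not reported here. Other genes were named after their values were seen. Symbols came from the files, and HIF3A, KRT13, KRT19, MUC5AC, and TFF1 were matched by gene ID through a RefSeq table of mOryCun1.1. MT2A, CAVIN2, HDAC2, MYH2, MYH7, TNNT3, and PLIN1 were not matched. No genome or sequence table of OryCun2.0 was used here, so no sequences are printed.

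The alternatives were DESeq2 size factors, library size only, no filter on low counts, DESeq2's test, limma-trend on log2 CPM (pseudocount 0.5 or 1) and on log2 FPKM (pseudocount 0.1), only the groups compared, a replicate block, and each library left out. Leaving out control replicate 3 and TL14d replicate 1 together was added after seeing the data. In a test on simulated data for TL3h against control with 14654 genes, 11 of 50 genes changed 2-fold, 44 of 50 changed 4-fold, and 50 of 50 changed 8-fold were recovered. Every simulated gene was given the same relative spread between libraries. These shares therefore do not apply to genes with a wider spread, such as FKBP5 and PDK4. No pair of libraries from the same group was a copy, since their squared count differences exceeded the counting variance by a factor of at least 76.0.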

Additional observations from a re-analysis of the deposited data

Results flagged for a closer look

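The change against control differed between time points for 11 pairs of a gene and 2 times, by the direct test of the difference in edgeR. These are the tests between operated groups already given above. At 3 days against 3 hours they were 6 of 10 genes, beside 19.0% of all genes called lower and 37.3% in either direction. At 14 days against 3 hours they were 5 of 10, beside 22.3% lower and 45.3% in either direction. With 1 library left out, these counts ranged from 2 to 8 and from 2 to 6. The value at 3 days minus that at 3 hours was -1.72 for TSC22D3, -4.04 for ZBTB16, -2.63 for KLF9, -3.74 for KLF15, -2.32 for SGK1, and -1.76 for GLUL on the log2 scale, lower at 3 days in 3 of 3 libraries of each gene. The value at 14 days minus that at 3 hours was -3.92 for FKBP5, -2.57 for KLF9, -2.91 for SGK1, -5.12 for PDK4, and -1.30 for GLUL, lower at 14 days in 3 of 3 libraries of each gene. Both changes subtract the same control libraries, so that each difference is that between the operated groups.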

How the results depend on the processing

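Of 60 pairs of a gene and a comparison, 18 kept direction and call under all alternatives, and 16 changed sign under at least 1, of which 0 were past the threshold with all libraries. The number of the 10 genes called at 3 hours was 2, and 1 with library size alone. Without both control replicate 3 and TL14d replicate 1 it was 7 at 3 hours (7 higher, beside 24.8% of all genes called higher), 6 at 3 days (3 higher and 3 lower, beside 14.4% and 11.2%), and 8 at 14 days against 3 hours (8 lower, beside 21.4%). DESeq2 called 1 gene at 14 days (0 by edgeR). In the count of transcripts followed over the alternatives, DESeq2 called 11 (6 by edgeR). That count is not the one at 14 days against control, where edgeR called 0 of 17 transcripts tested. With 1 library left out, the counts ranged from 2 to 6 at 3 hours, 0 to 3 at 3 days, 2 to 8 at 3 days against 3 hours, 2 to 6 at 14 days against 3 hours, 3 to 7 over the 3 time points, and 3 to 8 for transcripts. The alternatives limited to the 2 groups compared use fewer libraries.

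Same-numbered libraries did not pair (correlations of their deviations from -0.15 to 0.517). With the replicate block, 3 genes were called at 3 hours, CRISPLD2 among them (2.76, adjusted p = 0.00906 in edgeR; also called at 3 days and at 14 days against 3 hours, adjusted p = 0.0211 and 0.0108, and over the 3 time points, adjusted p = 0.0126), 2 at 3 days, 0 at 14 days, 7 at 3 days against 3 hours, and 6 at 14 days against 3 hours, and CRISPLD2 at 14 days changed sign to 0.17.

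Signs changed as follows on the log2 scale, and the cause was not tested. Without both named libraries, FKBP5 was 1.93 at 3 days and 1.24 at 14 days, TSC22D3 0.31, ZBTB16 1.74, and KLF15 0.48 at 3 hours, PDK4 2.72 at 3 days and 1.21 at 14 days, CRISPLD2 2.42 at 14 days and 0.13 at 14 days against 3 days, KLF9 -0.34 in that comparison, and NR3C1 0.14 at 3 days. With limma on log2 CPM (pseudocount 0.5, then 1), TSC22D3 was 0.0028 and 0.0027 and ZBTB16 0.21 and 0.19 at 3 hours, PDK4 0.43 and 0.37 at 3 days, CRISPLD2 0.28 and 0.26 at 14 days, and KLF9 -0.030 and -0.026 at 14 days against 3 days. On FPKM, PDK4 was 0.46 at 3 days, CRISPLD2 0.32 at 14 days, KLF9 -0.028 at 14 days against 3 days, and NR3C1 -0.18 at 3 hours, 0.00091 at 3 days, and 0.18 at 3 days against 3 hours. With library size alone, NR3C1 was -0.16 at 3 hours and 0.13 at 3 days against 3 hours, and the short-span TSC22D3 transcript -0.30 at 3 hours.

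With 1 library left out, values that changed sign ranged as follows. At 3 hours TSC22D3 ranged from -0.33 to 0.31, its short-span transcript from -0.17 to 0.59, ZBTB16 from -1.63 to 1.74, and KLF15 from -1.45 to 0.48. At 3 days FKBP5 ranged from -2.90 to 1.93, PDK4 from -2.45 to 2.72, CRISPLD2 from -0.89 to 2.29, and NR3C1 from -0.19 to 0.14. At 14 days FKBP5 ranged from -3.88 to 0.96, SGK1 from -0.15 to 0.93, PDK4 from -4.18 to 0.99, CRISPLD2 from -1.26 to 1.94, and GLUL from -0.36 to 0.083. At 14 days against 3 days KLF9 ranged from -0.34 to 0.39 and CRISPLD2 from -1.41 to 0.69. At this depth and with 3 libraries a group, 2-fold changes were mostly missed in the simulation (11 of 50 recovered). The simulation gave every gene the same relative spread, so larger changes of genes with a wider spread, such as FKBP5 and PDK4, may also be missed.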
